A study of Mus musculus with 16 samples.

Results

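The genes described here are 10 members of the BCL2 family in mouse liver neutrophils. They were chosen by symbol. The 6 prosurvival members are Mcl1, Bcl2l1, Bcl2 and the copies Bcl2a1a, Bcl2a1b and Bcl2a1d, and the 4 proapoptotic members are Bax, Bak1, Bid and Bcl2l11. All 10 were found among the 54532 gene identifiers of the deposited table, and 9 were among the 9851 genes with enough counts to be tested. Bcl2 was not.

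Proteins of this family decide whether the outer membrane of the mitochondrion is opened, which releases cytochrome c and starts the caspases. BAX and BAK (from Bak1) form the pores, MCL1, BCL-2, BCL-XL (from Bcl2l1) and A1 (from Bcl2a1) restrain them, and the BH3-only proteins BIM (from Bcl2l11) and BID push the balance towards death. Neutrophils are short-lived cells that depend on MCL1 and are known for little BCL-2, and A1 is an inducible survival factor in them.

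The libraries came from 8 C57BL/6 mixed bone marrow chimeras, numbered 2 to 9. Irradiated wild-type hosts (about 1000 cGy) had received 50% Ifngr1-/- marrow carrying CD45.2 and 50% wild-type marrow carrying CD45.1. After 8 weeks MC38 colon carcinoma cells were implanted in the flank of all mice, 1 week later a CD40 agonist (aCD40), an antibody that can inflame the liver, and 2 days after that liver neutrophils were sorted by CD45 type. Each mouse gave 1 Ifngr1_KO and 1 WT library (n = 8 each), so the question is which mRNAs depend on a neutrophil's own IFN-gamma receptor when the host is shared. Age and sex were not given in the labels, every mouse carried a tumour and received the agonist, and marrow donor, CD45 type and gate cannot be told apart from genotype.

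Totals were 12.5 to 16.9 M estimated counts per Ifngr1_KO library and 13.1 to 21.7 M per WT library. Ifngr1, the ligand-binding receptor chain, was at 38.8 to 119 CPM in Ifngr1_KO and 228 to 358 CPM in WT libraries, without overlap (CPM, counts scaled to a common library size with trimmed-mean factors, TMM). The Ifngr1_KO library of mouse 7 stood apart, with a median correlation of 0.762 with the other libraries against 0.836 to 0.897 for the rest. Mitochondrially encoded mRNAs took 0.475 to 2.50% of Ifngr1_KO counts (median 1.40%) and 0.294 to 1.19% of WT counts (median 0.569%). Of the 10 neutrophil markers all were tested, and their summed level was 28956 to 85097 CPM in Ifngr1_KO and 35817 to 58734 CPM in WT libraries. In the list of Kupffer cell and monocyte markers Vsig4 was at 0 in all libraries and Clec4f in all Ifngr1_KO libraries. The summed level of the 12 genes was 1487 to 2658 CPM in Ifngr1_KO and 2247 to 3538 CPM in WT libraries, lower in Ifngr1_KO in all 8 mice. By their means Csf1r (1287 CPM in Ifngr1_KO, 1497 CPM in WT) and Ly6c2 (741 and 1212 CPM) made up most of this sum. The 6 tested genes of the list that were not called had log2 fold changes of -0.31 (Csf1r), -0.17 (C1qa), -0.08 (C1qb), -0.17 (C1qc), 0.04 (Cd5l) and 0.59 (Ccr2). Of the neutrophil markers Hdc (log2 fold change -1.03), Cxcr4 (-0.73) and Fpr1 (-0.41) were called lower. The 7 that were not called had 0.30 (S100a8), -0.10 (S100a9), -0.38 (Csf3r), -0.26 (Cxcr2), -0.23 (Ly6g), -0.43 (Mmp9) and 0.07 (Retnlg). In the Kupffer cell and monocyte list Adgre1 (log2 fold change -1.11) and Ly6c2 (-0.73) were called lower. Of 6 tested genes in the list of immature and cycling neutrophils Ngp (-0.64) and Ltf (-1.09) were called lower. The other 4 were not called and went both ways, with Elane at 2.22, Prtn3 at 1.53, Mki67 at -1.67 and Camp at -0.46. Elane was higher in Ifngr1_KO in 8 of 8 mice, at means of 2.06 CPM in Ifngr1_KO and 0.487 CPM in WT. Without the mouse block Cxcr4, Fpr1, Ngp and Ltf were not called (adjusted p = 0.0779, 0.150, 0.447 and 0.278). Of the fits that left out 1 mouse, Fpr1 was called in that without mouse 7 alone (adjusted p 0.0716 to 0.116 in the others), and Ltf was not called without mouse 3, 6, 8 or 9 (0.0584 to 0.0709). With the mitochondrial covariate Ngp was called and the other 6 marker genes called lower were not. No gene was called in the T and NK cell, B cell, hepatocyte, liver endothelial, eosinophil and basophil, or platelet lists. The part of these differences in the results below was not tested except where a value is given.

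Among the tested members 1 of 9 passed the test of genotype. Bid fell in Ifngr1_KO neutrophils to 0.603 of the WT level, and no member rose past the threshold. Of all genes tested, 2.80% were called, 2.32% lower and 0.477% higher (edgeR quasi-likelihood test blocked by mouse, Benjamini-Hochberg adjusted p under 0.05). The 5 tested prosurvival members had log2 fold changes of 0.02 to 0.67, a median of 0.14, and none was negative. Of these 5, 3 are Bcl2a1 copies that share reads, and the median is the value of Bcl2a1b. Summed, the 3 copies had 0.18 (SE 0.14), and 0.048 (SE 0.072) without mouse 7. The 4 proapoptotic members had a median of -0.56, with Bax positive and the other 3 negative. A contrast between the 2 classes was not tested. The median over all genes tested was 0.046, and 4611 of the 9851 were negative. In bulk libraries a change of RNA per cell cannot be told apart from a change in the share of cells that carry it.

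**Figure D1:**
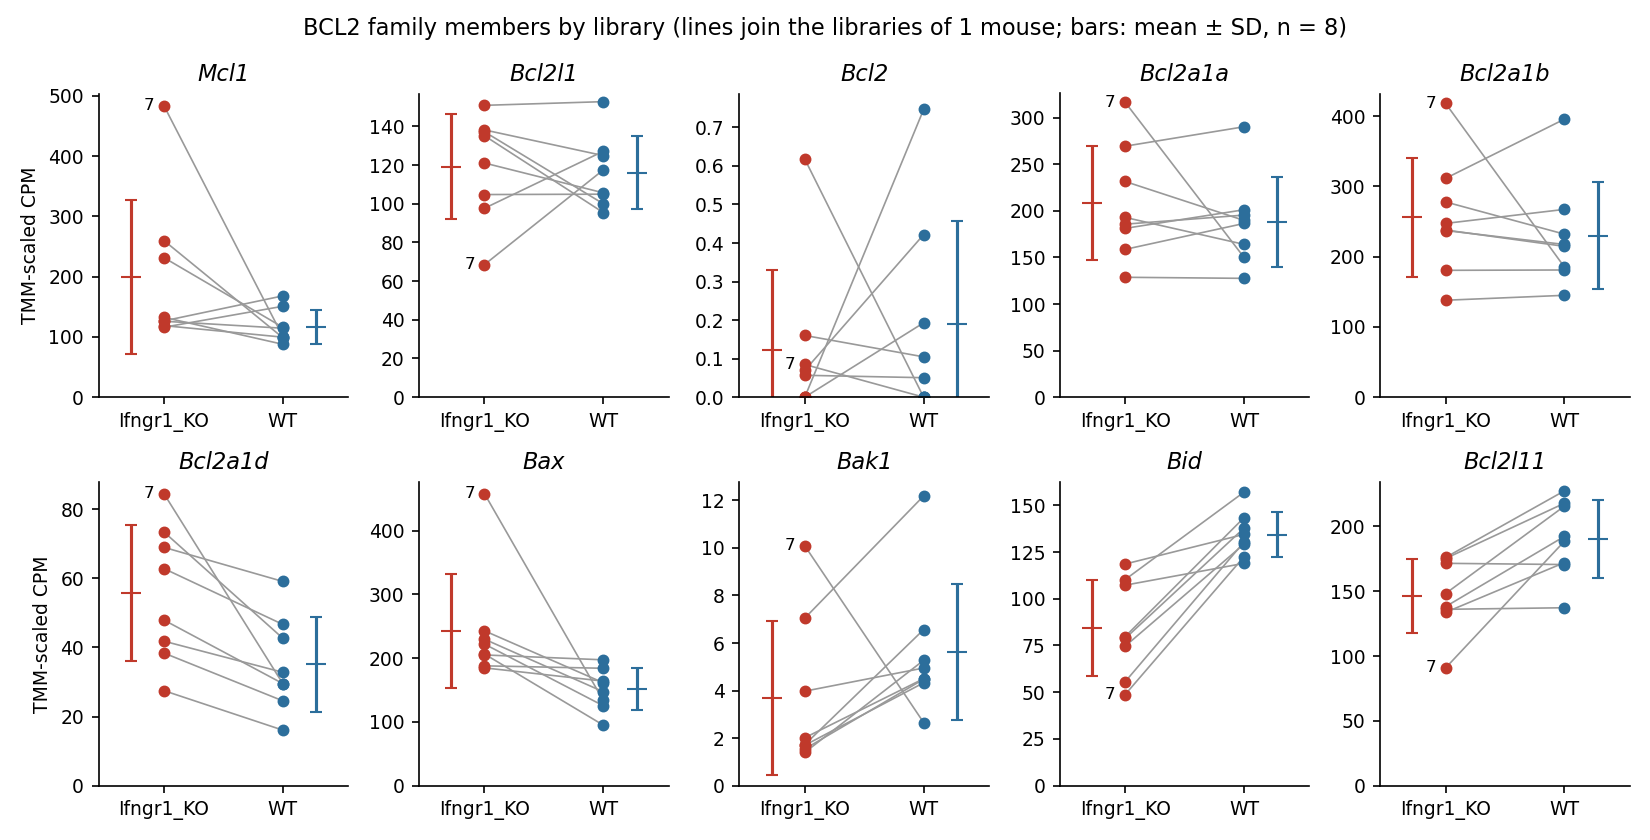
TMM-scaled CPM of the 10 members (y axis, from 0, a separate scale in each panel) in the 8 Ifngr1_KO and 8 WT libraries, with grey lines joining the libraries of 1 mouse, bars giving mean ± SD, and the Ifngr1_KO library of mouse 7 marked. Bid is the only member whose groups do not overlap, and Bcl2a1d and Bax are higher in Ifngr1_KO in all 8 mice.

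Bid encodes the BH3-only protein that caspase 8 cleaves, which joins the death receptors to the mitochondrial pathway. It lies on chromosome 6 (120891930 to 120916853 in mm10, minus strand). From mouse 2 to mouse 9 its level was 107, 110.3, 118.6, 74.6, 55.6, 48.8, 78.8 and 79.8 CPM in Ifngr1_KO neutrophils. In WT neutrophils of the same mice it was 118.9, 157, 134, 129, 130.4, 123, 138 and 143 CPM. Every Ifngr1_KO library lay below every WT library, though the highest Ifngr1_KO value (mouse 4) and the lowest WT value (mouse 2) nearly met. Groups without overlap were found for 1.65% of all genes tested, in either direction. The means were 84.2 ± 25.7 CPM in Ifngr1_KO and 134 ± 12.1 CPM in WT (SD, n = 8), and Bid was lower in Ifngr1_KO in 8 of 8 mice (log2 fold change -0.73, SE 0.15, 95% interval -1.07 to -0.39, edgeR adjusted p = 0.0314). The spread between mice was wider in Ifngr1_KO than in WT.

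The call of Bid was not kept when mouse 3, 5, 6, 8 or 9 was left out (adjusted p = 0.0765, 0.0783, 0.0944, 0.0952 and 0.0930, at log2 fold changes of -0.76 to -0.66), and it was kept without mouse 7 (-0.64, adjusted p = 0.0327). With library totals in place of the trimmed-mean scaling it had -0.62 (adjusted p = 0.0758), and with no low-count filter -0.76 (0.0507). Among the Ifngr1_KO libraries the level of Bid also went with the mitochondrial share. The Ifngr1_KO libraries of mice 2, 3 and 4, with mitochondrial shares of 0.475, 0.769 and 0.954%, had the 3 highest Bid levels of their genotype. In the other 5 Ifngr1_KO libraries, with shares of 1.33 to 2.50%, Bid was at 48.8 to 79.8 CPM. The WT library with the highest share (mouse 4, 1.19%) held 134 CPM of Bid. No WT library had a share as high as those 5 Ifngr1_KO libraries, so the genotypes cannot be compared in that range. Fitted beside the mitochondrial share as a covariate, Bid had a log2 fold change of -0.32 (SE 0.16, adjusted p = 0.658), and the number of genes called in the whole table was then 85 lower and 8 higher. The share itself differed between the genotypes (median 1.40% in Ifngr1_KO and 0.569% in WT), so this covariate can take up part of a genotype difference.

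**Figure D2:**
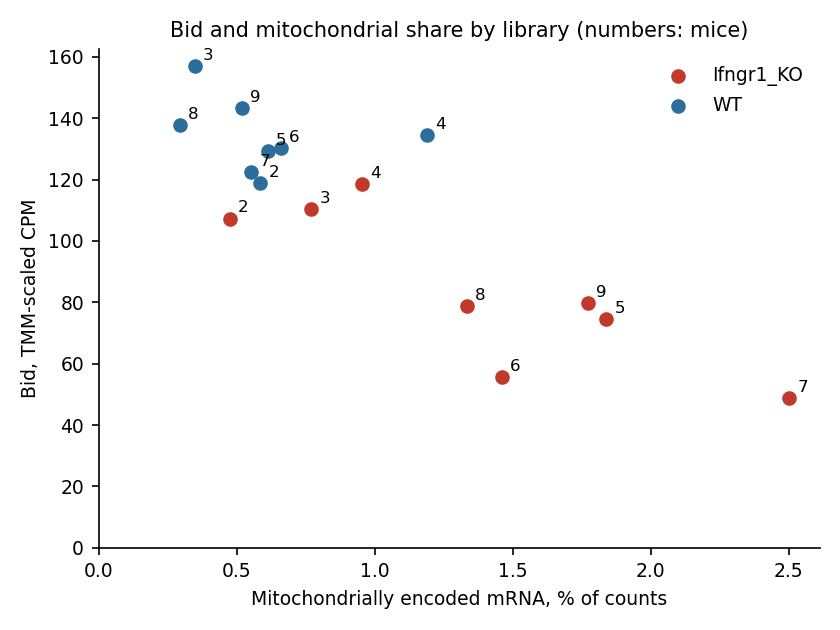
Bid in TMM-scaled CPM (y axis, from 0) against the share of counts from mitochondrially encoded mRNAs in percent (x axis), 1 point per library, numbered by mouse. Ifngr1_KO libraries run from 48.8 to 118.6 CPM and are at or below 79.8 CPM where the share is 1.33% or more, while the WT libraries stay between 118.9 and 157 CPM.

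The 3' end of Bid overlaps that of Bcl2l13, its neighbour on the opposite strand, by 628 bases of annotated exon, and these libraries do not mark strand. Bcl2l13, a mitochondrial relative of the family, was at 10.6 ± 8.32 CPM in Ifngr1_KO and 20.8 ± 11.1 CPM in WT (SD, n = 8; log2 fold change -1.47, SE 0.59, edgeR adjusted p = 0.248). The means of Bid were 84.2 CPM in Ifngr1_KO and 134 CPM in WT. How reads from the shared bases were divided between the 2 genes was not tested. With the counts of both genes summed, an alternative chosen after seeing the data, the value was -0.77 on the log2 scale (SE 0.14, adjusted p = 0.0166).

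Bcl2l11 encodes BIM, the BH3-only protein whose loss prolongs the life of mouse neutrophils. It lies on chromosome 2 (128126038 to 128162547, plus strand). Its level from mouse 2 to mouse 9 was 136, 176, 172, 148, 138, 90.8, 134 and 175 CPM in Ifngr1_KO neutrophils, against 137, 227, 171, 216, 192, 189, 172 and 218 CPM in WT neutrophils. It was lower in Ifngr1_KO in 7 of 8 mice, by very little in mouse 2, and the groups overlapped. The log2 fold change was -0.39 (SE 0.13, 95% interval -0.67 to -0.11, edgeR adjusted p = 0.149), so it did not pass the test. With the mitochondrial covariate it was -0.07 (SE 0.13).

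Bax and Bak1 encode the pore-forming effectors, and their transcripts differed widely in amount. Bax (chromosome 7, 45461697 to 45466898, minus strand) was at 185, 243, 205, 222, 188, 458, 229.7 and 206 CPM in the Ifngr1_KO libraries of mice 2 to 9. In the WT libraries it was at 164, 161, 197, 125, 184, 134, 147 and 94.97 CPM. Bax was higher in Ifngr1_KO in all 8 mice, yet the groups overlapped, and the Ifngr1_KO library of mouse 7 lay far above the rest. The log2 fold change was 0.65 (SE 0.19, 95% interval 0.22 to 1.07) with an edgeR adjusted p of 0.119. Without mouse 7 it was 0.49 (adjusted p = 0.109) and with the mitochondrial covariate 0.10 (adjusted p = 0.966), and DESeq2 called it (0.65, adjusted p = 0.0153).

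Bak1 (chromosome 17, 27019810 to 27029009, minus strand) had the lowest level of the tested members. From mouse 2 to mouse 9 it was at 3.98, 1.40, 1.54, 7.05, 1.73, 10.1, 2.02 and 1.70 CPM in Ifngr1_KO libraries and at 4.95, 5.27, 4.48, 12.2, 6.56, 2.66, 4.50 and 4.33 CPM in WT libraries. It was lower in Ifngr1_KO in 7 of 8 mice, with mouse 7 the exception, and the groups overlapped. The log2 fold change was -0.95 (SE 0.46, 95% interval -1.97 to 0.08, edgeR adjusted p = 0.345). Part of its exons overlap Ggnbp1 on the opposite strand, which held 165 counts in all libraries together against 1167 for Bak1.

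Mcl1, the prosurvival gene that mouse neutrophils most depend on, did not pass the test, and its level in Ifngr1_KO varied strongly between mice. It lies on chromosome 3 (95658788 to 95663176, plus strand). The Ifngr1_KO libraries of mice 2 to 9 held 119, 232, 132, 116, 259.9, 484, 126 and 127 CPM, against 99.6, 116, 87.8, 151, 98.7, 101, 114 and 168 CPM in WT. The Ifngr1_KO libraries of mice 3, 6 and 7 lay above every WT library, the other 5 lay within the WT range, and in mice 5 and 9 Mcl1 was lower in Ifngr1_KO. The means were 199 ± 128 CPM in Ifngr1_KO and 117 ± 28.1 CPM in WT (SD, n = 8; log2 fold change 0.59, SE 0.29, 95% interval -0.04 to 1.23, edgeR adjusted p = 0.335). Without mouse 7 the log2 fold change was 0.37. The interval includes no difference and a rise to 2.34 times the WT level.

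Bcl2l1, which encodes BCL-XL, had nearly the same mean in both genotypes, 119 ± 27.2 CPM in Ifngr1_KO and 116 ± 18.8 CPM in WT (SD, n = 8). It lies on chromosome 2 (152780668 to 152831728, minus strand) and ranged from 68.5 CPM (mouse 7) to 151 CPM in Ifngr1_KO libraries and from 95.5 to 153 CPM in WT libraries. It was lower in Ifngr1_KO in 4 of 8 mice and the ranges overlapped almost fully. The 95% interval of its log2 fold change, -0.32 to 0.35, lies between 0.802 and 1.28 times the WT level (log2 fold change 0.02, SE 0.15, edgeR adjusted p = 0.970).

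Bcl2, the founding member of the family (chromosome 1, 106538178 to 106714274, minus strand), was close to absent from these libraries. The Ifngr1_KO libraries of mice 2 to 9 held 1, 0, 0, 2, 0, 1, 1 and 8 counts, and the WT libraries 1, 3, 9, 2, 0, 0, 6 and 0 counts. A count of 0 allows a level of up to 0.167 to 0.254 CPM in an Ifngr1_KO library and 0.151 to 0.249 CPM in a WT library (3 counts, counting error only). Of the 16 libraries, 6 were at 0, 3 of each genotype. With so few counts Bcl2 did not pass the filter. With no filter its log2 fold change was -0.55 (SE 1.63, edgeR adjusted p = 0.933), so no difference was detectable at this depth.

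The Bcl2a1 genes, which encode A1, are copies on chromosome 9, Bcl2a1d at 88723285 to 88731914 on the minus strand, and Bcl2a1a at 88956900 to 88962419 and Bcl2a1b at 89199209 to 89207827 on the plus strand. Their coding sequences of 519 bases differ at 12 positions in all. Bcl2a1a and Bcl2a1b differ at 11 positions, Bcl2a1a and Bcl2a1d at 7, and Bcl2a1b and Bcl2a1d at 6. The first 120 coding bases hold 7 of the 12 and are shown as the stretch with most of the coding differences. They are from the GENCODE M21 transcripts (GRCm38), 5′ to 3′, with capitals at each position where the copies are not all alike.
Bcl2a1a: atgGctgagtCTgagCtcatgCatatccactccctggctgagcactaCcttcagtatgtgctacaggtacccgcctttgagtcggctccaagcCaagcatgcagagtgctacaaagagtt
Bcl2a1b: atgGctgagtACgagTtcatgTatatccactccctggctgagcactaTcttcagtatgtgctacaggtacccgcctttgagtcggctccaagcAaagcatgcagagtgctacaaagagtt
Bcl2a1d: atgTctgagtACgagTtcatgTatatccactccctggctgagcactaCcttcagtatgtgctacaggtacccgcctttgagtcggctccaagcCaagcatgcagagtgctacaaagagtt
Of all stretches of 31 bases in each transcript, 20.4% in Bcl2a1a, 11.2% in Bcl2a1b and 10.9% in Bcl2a1d occur in no other annotated gene, and most of these are not wholly within the coding sequence. The split of reads among the copies therefore rests on little sequence and on the estimate made by the quantifier.

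Summed, the 3 copies gave 520 ± 162 CPM in Ifngr1_KO and 453 ± 136 CPM in WT (SD, n = 8), and Ifngr1_KO was the higher in 5 of 8 mice. In the fit the summed counts gave 0.18 on the log2 scale (SE 0.14, 95% interval -0.14 to 0.50, edgeR adjusted p = 0.564). Gm29094, an annotated gene that shares 401 exon bases with Bcl2a1b, was at 56.6 ± 16.1 CPM in Ifngr1_KO and 47.8 ± 10.6 CPM in WT (SD, n = 8), and with its counts added the summed log2 fold change was 0.19 (SE 0.15, adjusted p = 0.558). Without mouse 7, an alternative also chosen after seeing the data, the 3 copies gave 0.048 (SE 0.072, adjusted p = 0.806).

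Bcl2a1a was at 129, 181, 159, 186, 232, 317, 193 and 269 CPM in the Ifngr1_KO libraries of mice 2 to 9, against 128, 201, 186, 195, 189.7, 150.02, 164 and 290.2 CPM in WT. Bcl2a1b was at 138, 247, 181, 237, 278, 418, 238 and 311 CPM in Ifngr1_KO, against 145, 267, 181, 217, 232, 185, 215 and 396 CPM in WT. For both, Ifngr1_KO was higher in 4 of 8 mice and lower in the other 4, and the groups overlapped. Their log2 fold changes were 0.13 (SE 0.15, edgeR adjusted p = 0.711) for Bcl2a1a and 0.14 (SE 0.15, adjusted p = 0.685) for Bcl2a1b. Without mouse 7 they were -0.0048 for Bcl2a1a and 6.4e-05 for Bcl2a1b.

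Bcl2a1d, the least abundant of the copies, was at 27.5, 73.4, 47.9, 41.8, 62.8, 84.4, 38.4 and 69.0 CPM in Ifngr1_KO libraries, against 16.1, 42.6, 29.5, 32.8, 46.7, 29.5, 24.5 and 59.1 CPM in WT libraries of mice 2 to 9. It was higher in Ifngr1_KO in all 8 mice, while the ranges of the groups overlapped. Its log2 fold change was 0.67 (SE 0.16, 95% interval 0.33 to 1.02), with an edgeR adjusted p of 0.0501, just outside the threshold. It was called without mouse 7 (0.56, adjusted p = 0.0272), with DESeq2 size factors (adjusted p = 0.0427), library totals (0.0223), a mean CPM of at least 10 (0.0255), limma-voom (0.0191) and DESeq2 (7.27e-04). Without the mouse block its log2 fold change was 0.66 and its adjusted p 0.237, and with the mitochondrial covariate 0.58 and 0.547. Of the 8 fits that left out 1 mouse, Bcl2a1d was called in that without mouse 7 alone (adjusted p of up to 0.128 in the others). It was also not called with no filter.

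In each mouse a larger part of the counts of the copies was assigned to Bcl2a1d in Ifngr1_KO. The share was 8.18 to 14.6% in Ifngr1_KO (10.7 ± 2.05%) and 5.57 to 9.96% in WT (7.60 ± 1.36%; SD, n = 8). Bcl2a1a took 40.3 ± 2.23% in Ifngr1_KO and 42.0 ± 2.77% in WT, and Bcl2a1b 49.0 ± 1.80% in Ifngr1_KO and 50.5 ± 2.55% in WT. These shares were looked at after the fold changes were known and carry no test.

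**Figure D3:**
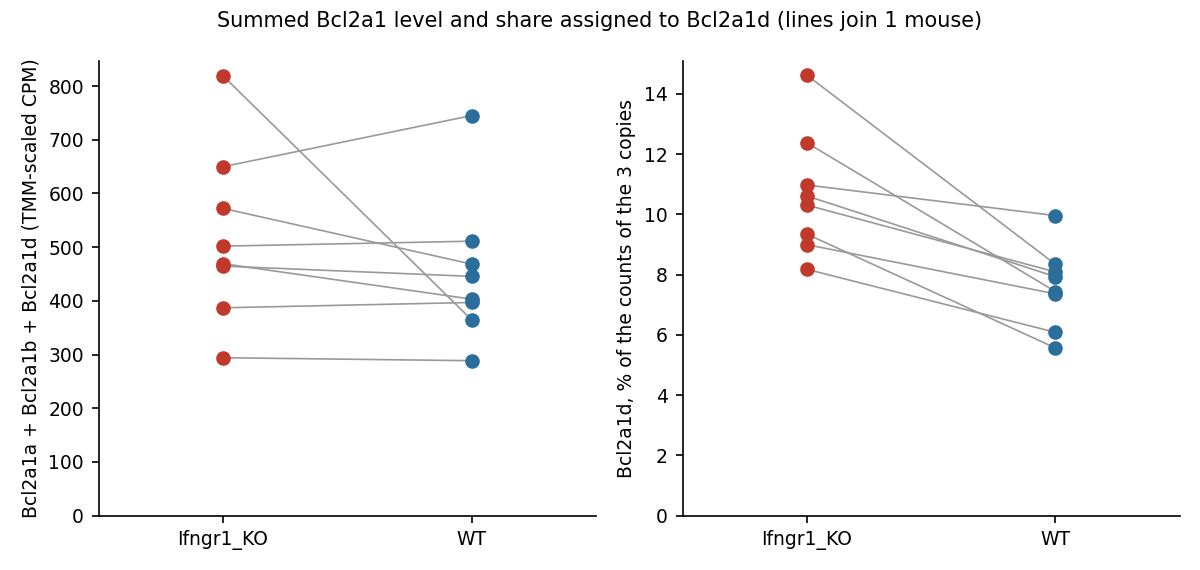
Left, the summed level of Bcl2a1a, Bcl2a1b and Bcl2a1d in TMM-scaled CPM (y axis, from 0), and right, the share of their counts assigned to Bcl2a1d in percent, for Ifngr1_KO and WT libraries joined by mouse. The summed level has no common direction (5 of 8 mice higher in Ifngr1_KO), while the Bcl2a1d share is higher in Ifngr1_KO in 8 of 8 mice.

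**Figure D4:**
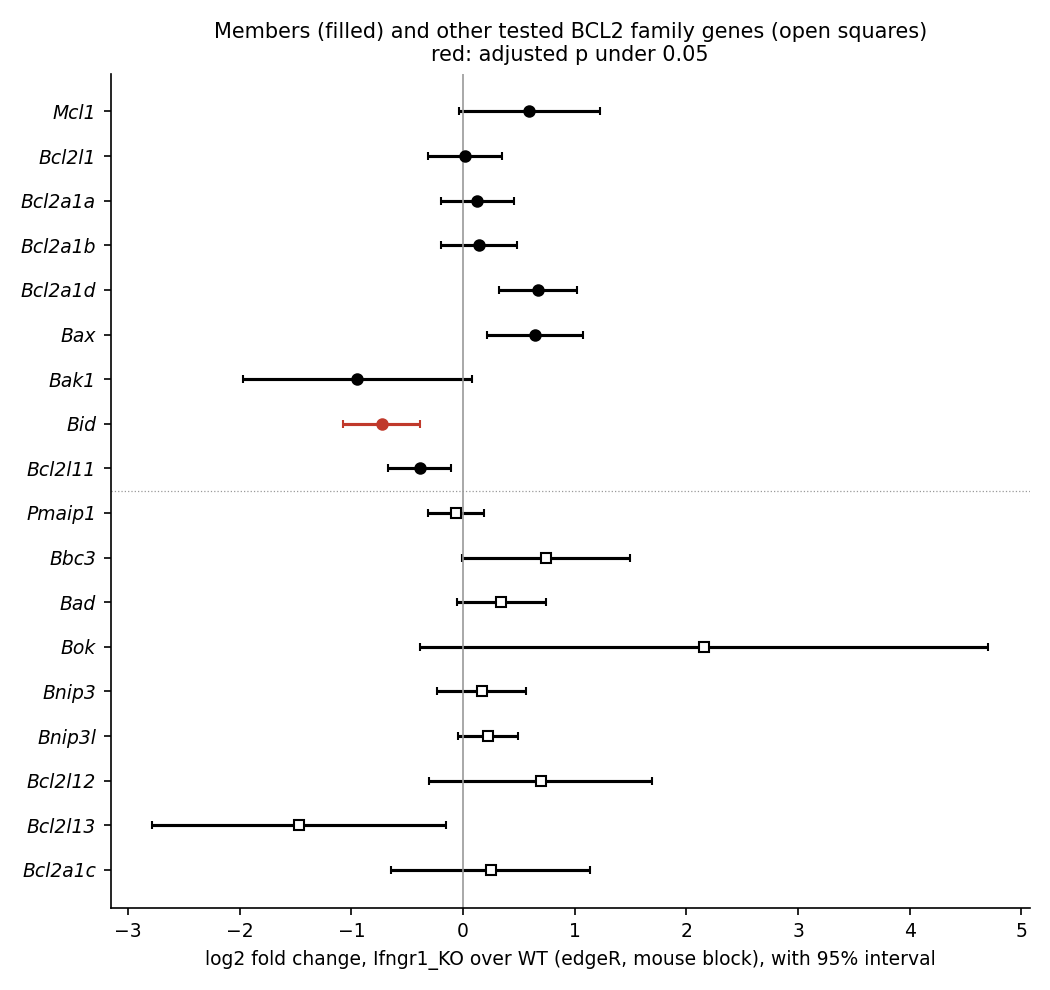
Log2 fold change of Ifngr1_KO over WT (x axis) with its 95% interval for the 9 tested members (filled circles) and the 9 other tested BCL2 family genes (open squares). Bid, in red, is the only one with an adjusted p under 0.05, and the intervals of Bcl2a1d, Bax, Bcl2l11 and Bcl2l13 do not include 0 before adjustment.

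Levels of different genes were compared per kb of merged exons, as CPM per kb. In Ifngr1_KO neutrophils the order from high to low was Bcl2a1b (314 ± 104), Bcl2a1a (254 ± 74.8), Bax (154 ± 56.8), Bcl2a1d (64.5 ± 22.8), Mcl1 (58.3 ± 37.3), Bcl2l1 (26.0 ± 5.94), Bid (23.7 ± 7.23), Bcl2l11 (18.2 ± 3.58), Bak1 (1.53 ± 1.34) and Bcl2 (0.0135 ± 0.0226; SD, n = 8). In WT neutrophils it was Bcl2a1b (281 ± 93.6), Bcl2a1a (229.6 ± 59.0), Bax (95.8 ± 20.9), Bcl2a1d (40.7 ± 15.8), Bid (37.8 ± 3.41), Mcl1 (34.2 ± 8.23), Bcl2l1 (25.3 ± 4.09), Bcl2l11 (23.7 ± 3.74), Bak1 (2.33 ± 1.19) and Bcl2 (0.0207 ± 0.0291; SD, n = 8). Bid thus stood below Mcl1 and Bcl2l1 in Ifngr1_KO and above both in WT by the means. In both genotypes the gaps between Bcl2a1b and Bcl2a1a and between Bcl2a1d and its next lower neighbour were smaller than the larger of the 2 SDs, as was the gap between Bcl2l1 and its next lower neighbour. The same held for Mcl1 and Bcl2l1 and for Bid and Bcl2l11 in Ifngr1_KO, and for Bid and Mcl1 in WT. With the longest transcript as the length, 5 members changed place in WT and none in Ifngr1_KO. Per kb of merged exons, Bax, Bak1 and Bcl2 were apart from their neighbours by more than the larger SD. Per kb of the longest transcript, Bax (220 ± 81.3) was within it of Bcl2a1a in Ifngr1_KO.

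**Figure D5:**
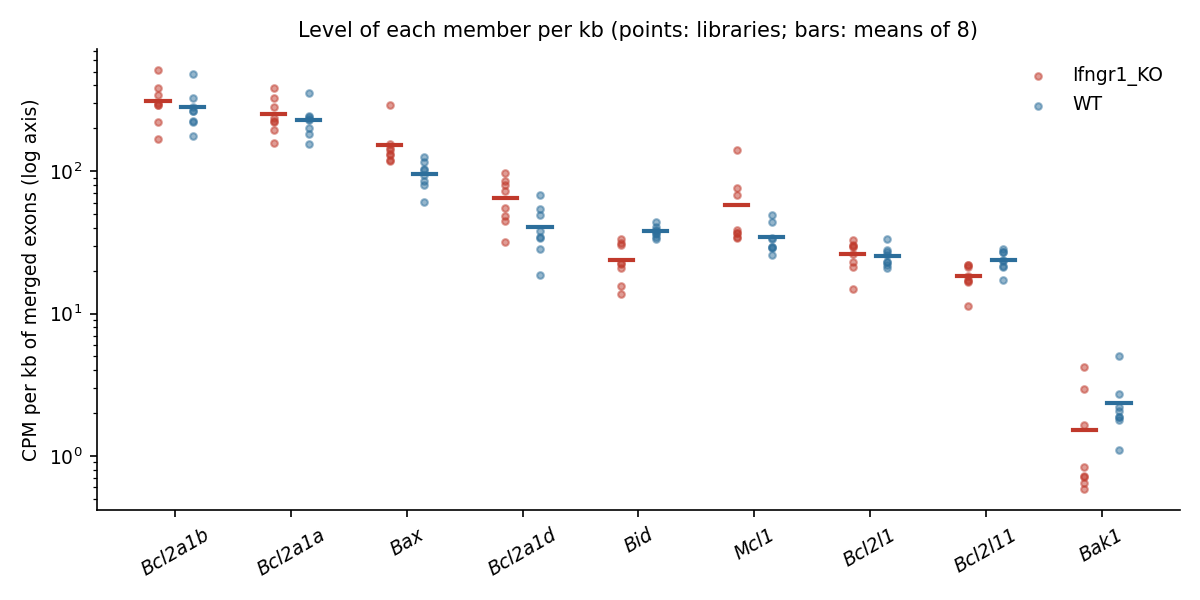
CPM per kb of merged exons on a log axis (y axis) for the 9 tested members, ordered by their mean in WT, with 1 point per library, bars for means of 8, and Ifngr1_KO left of WT. Bcl2a1b and Bcl2a1a are highest in both genotypes, and Bak1 is lowest in both.

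Summed per kb of merged exons, the prosurvival members reached 716 ± 224 CPM per kb in Ifngr1_KO and 611 ± 171 in WT, higher in Ifngr1_KO in 7 of 8 mice. The proapoptotic members reached 197 ± 52.1 CPM per kb in Ifngr1_KO and 159.7 ± 19.8 in WT (SD, n = 8), and Ifngr1_KO was the higher in 6 of 8 mice. The ratio of prosurvival to proapoptotic sums was 2.50 to 5.19 in Ifngr1_KO and 2.58 to 7.54 in WT libraries, higher in Ifngr1_KO in 3 of 8 mice. Bcl2a1b and Bcl2a1a make up most of the first sum and Bax most of the second, and the ratio has no test.

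No other gene of the family passed the test of genotype. Of 16 further BCL2 family genes 9 were tested and none was called, with a median log2 fold change of 0.25. An unadjusted edgeR p under 0.05 was found for 1 of them (Bcl2l13), and for 1602 of all 9851 genes tested. Under DESeq2 Bcl2l13 was called (log2 fold change -1.51, adjusted p = 0.0329). Pmaip1, which encodes the BH3-only protein NOXA that neutralises MCL1, was among the most abundant family genes at 327 ± 60.0 CPM in Ifngr1_KO and 344 ± 87.5 CPM in WT (SD, n = 8; log2 fold change -0.06, SE 0.11, 95% interval -0.31 to 0.19). Bbc3, which encodes the p53-induced BH3-only protein PUMA, was at 5.74 ± 1.35 CPM in Ifngr1_KO and 3.65 ± 1.56 CPM in WT, higher in 7 of 8 mice (0.74, SE 0.34, edgeR adjusted p = 0.314). Bad, whose BH3-only protein is held in check by phosphorylation, had 0.34 on the log2 scale, the mitophagy receptors Bnip3 and Bnip3l had 0.17 and 0.23, Bcl2l12 had 0.69, Bcl2a1c 0.25 and Bok, a BAX relative, 2.16 (SE 1.15) at 1.54 CPM in Ifngr1_KO and 0.833 CPM in WT.

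The other 7 of the 16 had too few counts to be tested. Bcl2l10 and Hrk had no count in any library. Bcl2l14 had 2 counts in all Ifngr1_KO libraries together and 153 in all WT libraries, where 5 of 8 held 13 to 48 counts and 3 held none. Bcl2l15 had 113 counts in Ifngr1_KO, in 7 of 8 libraries, and 14 in WT, in 2 of 8. With no filter, where both were tested, the adjusted p was 0.148 for Bcl2l14 and 0.251 for Bcl2l15 (edgeR). Bmf had 134 and Bcl2l2 73 counts in Ifngr1_KO, against 70 and 31 in WT, and Bik had 12 in Ifngr1_KO and 26 in WT.

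Upstream, in the list of death receptors and the caspase 8 complex, which acts on BID, 1 of 10 tested genes was called, against 2.80% of all genes tested. In it 8 of 10 had negative log2 fold changes, against 4611 of all 9851. The median of the 10 was -0.44, and that of all genes tested was 0.046. The list as a whole was not tested. An unadjusted edgeR p under 0.05 was found for 6 of the 10, against 1602 of all 9851 genes tested. Tnf, which encodes a ligand of death receptors, fell to 1148 ± 228 CPM in Ifngr1_KO, against 1534 ± 292 CPM in WT (SD, n = 8; -0.42, SE 0.08, edgeR adjusted p = 0.0198), lower in 8 of 8 mice. Of the fits that left out 1 mouse, it was called in those without mouse 2 and without mouse 7, and not in the other 6 (adjusted p 0.0508 to 0.0764). It was also not called without the mouse block (-0.42, adjusted p = 0.165), with library totals (-0.31, 0.0873), with no filter (-0.45, 0.0723) or with the mitochondrial covariate (-0.32, 0.354).

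In the list of survival receptors and kinases upstream of the family none of 16 tested genes was called. The list also holds transcription factors, and Foxo3, Trp53 and Hif1a were among the 16. The median log2 fold change was 0.13, and 3 genes had an unadjusted edgeR p under 0.05, against 1602 of all 9851 genes tested. Csf3r, the receptor for G-CSF, was at 4022 ± 1263 CPM in Ifngr1_KO and 4974 ± 515 CPM in WT (-0.38, SE 0.21), and Csf2rb, the beta chain of the GM-CSF receptor, at 788 ± 274 CPM in Ifngr1_KO and 1001 ± 101 CPM in WT (-0.46, SE 0.30; SD, n = 8). The Ifngr1_KO library of mouse 7 held 1311 CPM of Csf3r and 137 CPM of Csf2rb, with the other 7 at 3607 to 5320 and 751 to 1004 CPM, and without mouse 7 the log2 fold change of each was -0.17. In a list drawn up for the turnover of MCL1, which also holds the transcriptional kinases Cdk7 and Cdk9, none of 9 tested genes was called. Their median was 0.20, and 2 of the 9 had an unadjusted edgeR p under 0.05. A role in MCL1 turnover was not tested for any gene of this list. Trib1, a pseudokinase that recruits a ubiquitin ligase, had 0.41 on the log2 scale (SE 0.21), and Mapk14, the kinase p38 alpha, -1.03 (SE 0.46, edgeR adjusted p = 0.296). Without mouse 5 or mouse 7 Mapk14 had -0.72 and -0.71, and with the mitochondrial covariate -0.0097.

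Promoter sequence was searched for all 10 members on both strands, in RefSeq windows of 300 bases around each annotated start (GRCm38.p6). GAAA followed by any 2 bases and GAAA again, letters found in sites of interferon regulatory factors, occurred in none of the 13 windows of the members, and in 3.44% of all 32851 windows. This says only that these letters are not in these windows.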

How the data were processed

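RNA of sorted liver neutrophils was captured by oligo-dT from 1 ng and amplified by 13 PCR cycles, per the labels' protocols. The SMARTseq and NexteraXT kits named there keep no strand information and add no molecular identifiers, so limits from a count of 0 cover counting error only, while intervals of fold changes come from the fit over mice. The deposited table holds estimated counts per Ensembl gene, in whole numbers and unscaled. The tools named in the submitters' processing notes are Salmon 0.14.2 and DESeq2 1.22.1, and the build is mm10. What DESeq2 was used for, and which transcripts were quantified, is not given in the sources used here. The counts were used as deposited, since all values were already whole. Names, positions and exon lengths came from GENCODE M21 of that build (37 identifiers had no name).

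Groups and mouse numbers came from the titles, and the series design states that each number is 1 mouse. Counts were filtered by filterByExpr, scaled by TMM and tested in R 4.3.3 with edgeR 4.0.16 (quasi-likelihood F-test, mouse block, Benjamini-Hochberg over 9851 genes, threshold 0.05). Fold changes are Ifngr1_KO over WT, and SE is the log2 fold change over the square root of F. Deviations of the libraries of 1 mouse correlated by 0.138 on average.

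Members and lists were chosen with earlier results of these data known. Named genes were Ifngr1, the members, tested BCL2 family genes and, per list, up to 4 called genes or, without calls, the 2 most abundant (marker lists without calls are given as sums), and the 3 genes most like Mcl1 and Bid. Alternatives used DESeq2 1.42.0, limma 3.58.1, other scalings and filters, a mitochondrial covariate, summed copies and left-out mice. The main test was tried on simulated data. Some results for genes in these lists are not reported here.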

Additional observations from a re-analysis of the deposited data

Results flagged for a closer look

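In 22 groups of 8 libraries (the members and Ifngr1 in each genotype) the highest and the lowest library were checked with Dixon's test. In 5 groups the highest library was set apart from the next by more of the group's range than the 95% critical value. That value holds for independent values from a normal distribution. These groups share libraries, the Bcl2a1 copies share reads and Bcl2 is near 0, so the number to be had by chance is not known. Of the 5, 2 were in the Ifngr1_KO library of mouse 7: Mcl1 at 484 CPM with the next library at 259.9 CPM, and Bax at 458 CPM with the next at 243 CPM. In the Ifngr1_KO library of mouse 9 Bcl2 was at 0.618 CPM (8 counts), with the next at 0.160 CPM. In WT libraries, Bcl2a1a was at 290.2 CPM in mouse 9 with the next at 201 CPM, and Bak1 at 12.2 CPM in mouse 5 with the next at 6.56 CPM.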

How the results depend on the processing

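Over all genes, 229 were called lower and 47 higher in Ifngr1_KO, and among the members 1 lower and 0 higher. Under the alternatives the counts over all genes, with members lower and higher after them, were as follows. Without the replicate block they were 216 lower and 52 higher, with members at 1 and 0, and 215 of the 276 genes were shared. DESeq2 size factors gave 225 and 48 (members 1 and 1), and library totals 164 and 102 (members 0 and 1), with the median of all genes at 0.157. No filter gave 196 and 31 (members 0 and 0), and a mean CPM of at least 10 gave 244 and 126 (members 1 and 1). DESeq2's Wald test gave 572 and 488 (members 1 and 2), limma-voom 425 and 172 (members 1 and 1), and the mitochondrial covariate 85 and 8 (members 0 and 0). An adjusted p under 0.01 gave 124 and 10 (members 0 and 0), and one under 0.1 gave 361 and 142 (members 1 and 1). Leaving out 1 mouse gave 144 (without mouse 3) to 334 (without mouse 7) lower and 19 (without mouse 3) to 78 (without mouse 7) higher, with members at 0 to 1 in each direction. The direction of some uncalled genes was not stable. Pmaip1 had 0.050 with library totals, 0.025 with a mean CPM of at least 10 and 0.062 with the mitochondrial covariate. Bcl2l1 had -0.0083 with no filter and -0.053 to 0.13 with 1 mouse left out, and Bcl2a1a -0.0048 to 0.19. With the mitochondrial covariate Bcl2a1a had -0.18, Bcl2a1b -0.14, Csf3r 0.071 and Csf2rb 0.24. The causes were not tested. Depth limits Bcl2 and the untested family genes.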

Other observations

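The genes whose levels followed Mcl1 and Bid most closely were taken from all tested genes by Pearson's r of log2 CPM, centred within each genotype, over the 16 libraries, which share depth and the mitochondrial share, so that r is a description. For Mcl1 they were Lamp1 (r = 0.89, and 0.83 without the 2 libraries farthest from the median), Rhob (0.88, and 0.66) and Pnrc1 (0.88, and 0.79). For Bid they were Hyou1 (0.90, and 0.81), Znfx1 (0.90, and 0.82) and Smarce1-ps1 (0.88, and 0.86). Of these 6 genes Znfx1 was called lower in Ifngr1_KO (log2 fold change -1.14, edgeR adjusted p = 0.0160).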
